A study of Arabidopsis with 22 samples.

Results

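RNA from *lux-1* plants collected in the evening was compared with RNA from *lux-1* plants collected in the morning, to see which time-of-day differences in transcript level remained without LUX. The comparison took 6 of the 22 libraries of the series, all those labelled *lux-1*, with 3 biological replicates at ZT1 and 3 at ZT13. Plants were 25 days old and grown in a cycle of 12 h light and 12 h dark, so that ZT1 is 1 h after light onset and ZT13 is 1 h after the lights went off. Whole plants were collected. The *lux-1* line carries a nonsense mutation early in the coding region of *LUX*, in the Col-0 background. Wild-type Col-0 at the same times, with 3 replicates each, was the background against which the *lux-1* differences were read. Another genotype, *acd6-1lux-1*, carries *lux-1* together with *acd6-1*, an allele that gives constitutive defense. It had 3 replicates at ZT1 and 2 at ZT13. With a single morning and a single evening time, the hour of the clock, the change from light to dark and anything else that differed between the collections cannot be told apart.

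The plant clock is a set of transcription factors that repress or activate each other in sequence through the day. The MYB factors CCA1 and LHY act around dawn, PRR9, PRR7, PRR5 and TOC1 follow in turn, and the evening complex of ELF3, ELF4 and LUX acts around dusk and in the night. LUX is the MYB-like subunit that brings the complex to DNA, where it represses genes that include *PRR9*, *GI*, *PIF4*, *PIF5* and *LUX* itself.

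The levels given are RPKM values, read counts scaled to coding length and to the mapped reads of the library, divided by a size factor for each library and called scaled RPKM. A difference is that of the mean log2(scaled RPKM + 1), which understates the change of weakly expressed genes. The p values came from limma and were adjusted by the Benjamini-Hochberg method across all 21666 genes tested. Standard errors, given after ±, came from the same fit, with 1 estimate of the spread of each gene over all 8 groups. They are thus not the spread of the *lux-1* replicates alone. Genes with an adjusted p under 0.1 are said to pass, and those that also differed by more than 1 on the log2 scale are said to be called. The *lux-1* libraries held 12295402 to 13586590 mapped reads, 80.2% to 81.4% of their total. Replicates of *lux-1* correlated at 0.988 to 0.992 at ZT1 and at 0.982 to 0.989 at ZT13, and libraries of different times at 0.922 to 0.946. The median difference of all genes was 0.04 in *lux-1* and 0.02 in Col-0. It was 0.15 and 0.24 for RPKM as deposited, so that changes are given relative to the scaled values. One library stood apart, *acd6-1lux-1* at ZT1 replicate 3, with 60.5% of reads mapped and 0.661% of them on chloroplast genes, against 0.0183% to 0.0235% in *lux-1*.

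Evening and morning differed widely in *lux-1*. At ZT13, 1190 genes were called higher and 1079 lower than at ZT1, 10.5% of the genes tested. Without the fold criterion 27.5% of all genes passed as higher and 23.3% as lower. Counts of list members that passed are to be read against these shares. RPKM as deposited gave 1503 higher and 835 lower, a larger share of rises. The 3 ZT1 and the 3 ZT13 libraries of *lux-1* did not overlap for 51.3% of all genes, and for 2185 of the 2269 called. The largest rise was that of *BT2* (AT3G48360, chromosome 3), which encodes a BTB and TAZ domain protein of sugar and nitrate responses. Its scaled RPKM was 1.78, 1.70 and 1.02 at ZT1 and 362, 388 and 307 at ZT13, a difference of 7.15 ± 0.20 (SE, n = 3 per group, limma adjusted p = 4.0e-14). The largest falls were those of *GBSS1* (AT1G32900), which makes the amylose of starch, with a difference of -6.37 ± 0.18, and of *LEA3* (AT1G02820), a late embryogenesis abundant protein, with -6.22 ± 0.23. *GBSS1* went from 370, 438 and 399 to 3.43, 4.81 and 3.45. The Col-0 differences of these genes were 7.18 for *BT2*, -7.15 for *GBSS1* and -6.76 for *LEA3*. The time difference in *lux-1* minus that in Col-0 was -0.03 for *BT2*, with a 95% interval of -0.64 to 0.58, and 0.53 for *LEA3*, with an interval of -0.15 to 1.22. For *GBSS1* it was 0.77, with an interval of 0.23 to 1.32 and a limma adjusted p of 0.0963, which did not pass in 11 of the 13 fits that each left out 1 library.

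On the log2(scaled RPKM + 1) scale, *LUX* itself was the evening complex gene whose time-of-day difference changed most. *ELF4* came next, with a Col-0 morning level so low that this scale understates its change, so the order may depend on the scale. The scaled RPKM of *LUX* (AT3G46640, chromosome 3) in *lux-1* was 7.37, 5.75 and 4.66 at ZT1 and 67.8, 78.3 and 68.7 at ZT13. In Col-0 it was 3.93, 2.76 and 3.88 at ZT1 and 5.63, 5.91 and 6.17 at ZT13. The *lux-1* evening libraries were thus the only ones of these 12 with a high level, and they did not overlap with any other. The rise was 3.41 ± 0.17 in *lux-1* and 0.62 in Col-0, and the difference between them was 2.79 ± 0.23 (limma adjusted p = 8.7e-07). The transcript of a nonsense allele is still counted, so these values do not check the genotype.

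Most of the other evening complex genes rose in the evening. Of the 8 evening complex genes tested, 6 passed as higher, 1 as lower and 1 did not pass, where 27.5% and 23.3% of all genes passed. *ELF3*, the scaffold of the complex, rose from 7.42, 5.35 and 7.42 to 42.1, 41.8 and 36.6, a difference of 2.42 ± 0.11. Its ZT13 level was close to that of Col-0, 39.8 to 43.2, and its ZT1 level lay above the 3.25 to 4.50 of Col-0, so that the rise was smaller than in Col-0 by 0.75 ± 0.16 (limma adjusted p = 0.00832). *ELF4*, a small subunit, went from 3.24, 3.53 and 4.58 to 11, 41.0 and 21.1, which is 2.23 ± 0.35 against 4.50 in Col-0. The difference between genotypes for *ELF4* was -2.27 ± 0.49 (limma adjusted p = 0.00915), and the *lux-1* ZT13 libraries spread over a range that the Col-0 ones, 28.1 to 31.7, did not. At ZT1 *ELF4* was at 0 to 0.748 in Col-0, a level at which the scale used understates the change. *BOA*, the nearest relative of *LUX*, rose by 3.09 ± 0.16, from 1.04 to 2.43 up to 18.9 to 20.9. Of the *ELF4*-like genes, *ELF4-L4* rose by 1.26 ± 0.10, and *ELF4-L3* had a difference of 0.12 with an adjusted p of 0.734. The small changes of *ELF4-L1*, 0.69, and *ELF4-L2*, -0.26, passed at adjusted p values of 0.0923 and 0.0638 in limma. Their adjusted p values rose to as much as 0.377 and 0.20 when single *lux-1* libraries were left out. Without *lux-1* ZT13 replicate 2 the difference of *ELF4-L1* was 0.39, and without ZT1 replicate 3 that of *ELF4-L2* was -0.21. RPKM as deposited gave -0.11 for *ELF4-L2*, which did not pass.

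Most of the dawn genes fell in the evening without LUX. Of the 10 MYB genes of the *CCA1*, *LHY* and *RVE* family, 8 passed as lower at ZT13, 1 as higher and 1 did not pass. Of all genes, 23.3% passed as lower and 27.5% as higher. The median difference of the 10 was -2.21 in *lux-1* and -3.36 in Col-0. *CCA1* (AT2G46830) had a scaled RPKM of 123, 132 and 127 at ZT1 and of 0.727, 2.43 and 1.17 at ZT13, a fall of 5.78 ± 0.19 on the log2 scale. *LHY* (AT1G01060) went from 116, 115 and 113 to 1.12, 1.58 and 0.851, and *RVE8*, an activator of evening genes, from 43.0, 49.6 and 49.7 to 2.96, 3.09 and 3.52. In Col-0 the same 3 genes stood higher at ZT1, at 192 to 198 for *CCA1*, 203 to 207 for *LHY* and 60.7 to 67.9 for *RVE8*. At ZT13 the Col-0 libraries lay below those of *lux-1* for *CCA1*, at 0.32 to 0.434, and *RVE8*, at 1.4 to 2.03, and overlapped with them for *LHY*, at 0.613 to 0.868. The falls were smaller in *lux-1*, by 1.39 ± 0.27 for *CCA1*, 1.13 ± 0.14 for *LHY* and 1.08 ± 0.14 for *RVE8*, with limma adjusted p values of 0.00406, 6.6e-05 and 6.6e-05. *RVE1*, which links the clock to auxin in seedlings, fell by 1.37 ± 0.18 against 2.85 in Col-0, and the difference of 1.48 ± 0.25 passed. *RVE2* was the exception in direction, with 6.58, 7.16 and 4.55 at ZT1 and 93.7, 98.7 and 68.3 at ZT13, a rise of 3.63 ± 0.18 against 4.60 in Col-0. *RVE4* had a difference of 0.14 ± 0.09 with an adjusted p of 0.24, while in Col-0 it was -0.38. Without *lux-1* ZT13 replicate 3 the *RVE4* difference was 0.21 and passed at an adjusted p of 0.0939, and for RPKM as deposited it was 0.29 and passed. The *ASG4* and *RVE7* genes fell by 3.98 and 3.05. Of the members without a symbol in the annotation table used, AT4G01280 fell by 0.73 and AT5G52660 by 0.42.

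The 4 *LNK* genes, which encode coactivators that bind RVE8, all passed as lower, where 23.3% of all genes did. Their median was -4.84 in *lux-1* and -6.62 in Col-0. For each of them every *lux-1* library lay below every Col-0 library at ZT1 and above every Col-0 library at ZT13. Such gaps occurred for 17% of all genes tested at ZT1 and 9.21% at ZT13. *LNK1* went from 78.2, 79.5 and 74.8 to 4.27, 8.05 and 4.89, against 0.311 to 0.559 in the evening in Col-0, and its fall was smaller by 2.42 ± 0.23 (limma adjusted p = 2.1e-06). *LNK2*, *LNK3* and *LNK4* had differences of -4.75, -4.93 and -5.43, smaller falls than in Col-0 by 1.75, 1.80 and 1.52, and all 3 differences passed.

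The 5 *PRR* genes differed in direction in *lux-1* as they did in Col-0. *PRR9* and *PRR7*, the morning members, passed as lower at ZT13, and *PRR5*, *TOC1* and *PRR3* as higher. *PRR9* went from 53.8, 59.8 and 52.0 to 0.149, 2.74 and 0.928, a fall of 4.79 ± 0.28 that differed from that in Col-0 by 0.43 with an interval of -0.40 to 1.26. In Col-0 *PRR9* was at 46.3 to 47.3 at ZT1 and at 0.188 to 0.451 at ZT13. The evening libraries of both genotypes overlapped, at levels so low that the scale used understates changes. *PRR7* stayed at 12.8, 16.0 and 12.6 at ZT13, above the 2.99 to 3.56 of Col-0. Its fall of 1.95 ± 0.10 was smaller by 1.41 ± 0.14 (limma adjusted p = 4.4e-06). *TOC1* rose from 9.39, 7.57 and 8.02 to 63.8, 68.4 and 63.6, a difference of 2.83 ± 0.11 against 2.42 in Col-0. *PRR3* rose by 2.86 ± 0.12, less than in Col-0 by 0.68 ± 0.17, from a morning level of 2.28 to 3.05 that lay above the 0.0563 to 0.30 of Col-0. *PRR5* rose by 1.31 ± 0.26, from 1.88 to 2.49 up to 4.29 to 11.7. It lay above Col-0 at both times, which had 0.357 to 0.669 and 2.25 to 2.99. The difference between genotypes was 0.03 with an interval of -0.75 to 0.81, on a scale that understates changes at such low levels. In *acd6-1lux-1* the time difference of *PRR5* was -0.08, which did not pass.

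**Figure D1:**
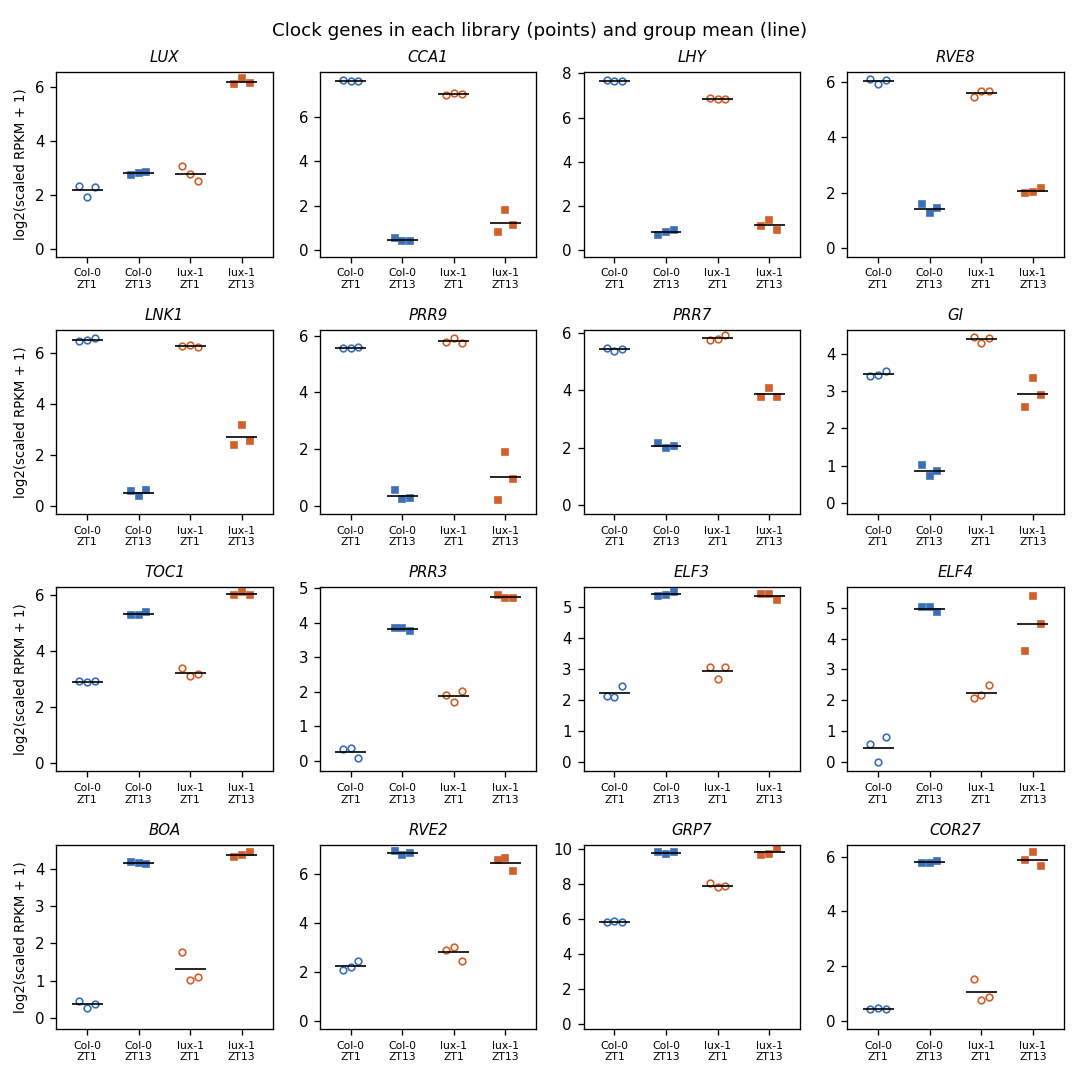
Level of 16 clock genes in each library, as log2(scaled RPKM + 1), at ZT1 (open circles) and ZT13 (filled squares) in Col-0 (blue) and *lux-1* (orange), with the group mean as a line. *LUX* is high only in the *lux-1* evening libraries, at 67.8 to 78.3 scaled RPKM, while *LNK1*, *PRR7* and *GI* fall less far at ZT13 in *lux-1* than in Col-0.

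Of the 17 other clock genes tested, 8 passed as higher, 4 as lower and 5 did not, where 27.5% and 23.3% of all genes passed. The largest rises were those of *JMJD5*, a jumonji protein with an evening peak, by 4.95 ± 0.16, *COR27*, a cold-regulated repressor, by 4.85 ± 0.24, and AT4G33980, by 3.85 ± 0.21. The Col-0 differences of these 3 genes were 5.64, 5.36 and 4.41. *GRP7*, an RNA-binding protein driven by the clock, was at 266, 227 and 234 in the morning and at 810, 861 and 1066 in the evening in *lux-1*. In Col-0 its evening level was similar, at 859 to 917, but its morning level was 55.2 to 57.4, so that the rise was smaller in *lux-1* by 2.07 ± 0.27 (limma adjusted p = 7.8e-05). *GI*, which acts on flowering and on the F-box protein ZTL, fell from 21.1, 18.6 and 20.8 to 4.98, 9.16 and 6.40. The *GI* libraries of *lux-1* lay above those of Col-0 at both times, and the fall of 1.46 ± 0.15 was smaller by 1.14 ± 0.21. *FKF1*, a blue-light receptor of the same family as ZTL, rose by 1.47, *LWD1* by 0.64 and *SRR1* by 0.35, and *GRP8* and *LWD2* fell by 1.09 and 0.33. *CHE*, a TCP factor that binds the *CCA1* promoter, fell by 0.44, which no longer passed without *lux-1* ZT1 replicate 2, at -0.34, without ZT1 replicate 3, at -0.35, or without ZT13 replicate 2, at -0.35. *TIC* rose by 0.24, and by 0.13 without ZT13 replicate 2, which did not pass. *ZTL*, *XCT*, *SKIP*, *PRMT5* and *LKP2* had differences of -0.14 to 0.22 that did not pass. *SKIP* passed at 0.15 without *lux-1* ZT13 replicate 3 and *LKP2* at 0.30 without *lux-1* ZT1 replicate 2. With RPKM as deposited both passed, at 0.25 and 0.36, and *LWD2*, at -0.19, did not.

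Across all genes, the time differences of *lux-1* were close to those of Col-0. In Col-0, 1179 genes were called higher and 1294 lower at ZT13, 11.4% of those tested, and the differences of both genotypes correlated at 0.80 across genes, which are not independent replicates. The comparisons share no library. There were 614 genes called higher and 852 called lower in both, which is 64.6% of the *lux-1* calls and 59.3% of the Col-0 calls. Falls were shared more often than rises, at 79.0% of the *lux-1* falls and 51.6% of the *lux-1* rises, and this contrast between the shares was not tested. The shared changes had a median size of 1.45 in *lux-1* and 1.62 in Col-0. Of the 852 shared falls, 172 differed between the genotypes at an adjusted p under 0.1, and 154 of these were smaller in *lux-1*. Of the 614 shared rises, 145 differed, and 99 of these were smaller in *lux-1*.

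Time differences that depended on the genotype were tested directly. The difference between genotypes was called for 638 genes, 2.94% of those tested, with 448 positive and 190 negative, and 4.59% and 3.54% of all genes passed without the fold criterion. RPKM as deposited gave 395 positive and 280 negative. Of the positive ones, 272 were called higher at ZT13 in *lux-1* and not in Col-0, and 100 were genes called lower in Col-0. Of the negative ones, 105 were called higher in Col-0 and 49 were called lower in *lux-1*. The levels show at which time the genotypes lay apart. The 272 and the 105 genes were chosen by the difference between genotypes in these same libraries. More gaps among them than among all genes thus follow from the choice, and only the time of the gap is described. For the 272 genes, every *lux-1* library lay below every Col-0 library at ZT1 for 236, against 17% of all genes. At ZT13 every *lux-1* library lay above every Col-0 library for 134, against 9.21% of all genes, and the libraries of both genotypes overlapped for 136. For the 105 genes called higher in Col-0, *lux-1* lay above Col-0 at ZT1 for 84, a gap seen for 15.2% of all genes, and below it at ZT13 for 48, against 9.14% of all genes. Only 5 genes were called in opposite directions. *PHI-1*, *CBF3*, *BT5* and AT5G43620 rose in *lux-1* and fell in Col-0, and AT3G28300 fell in *lux-1* and rose in Col-0. *CBF3* and AT3G28300 were named by a rule applied to these same values, and the others after their values were seen.

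**Figure D2:**
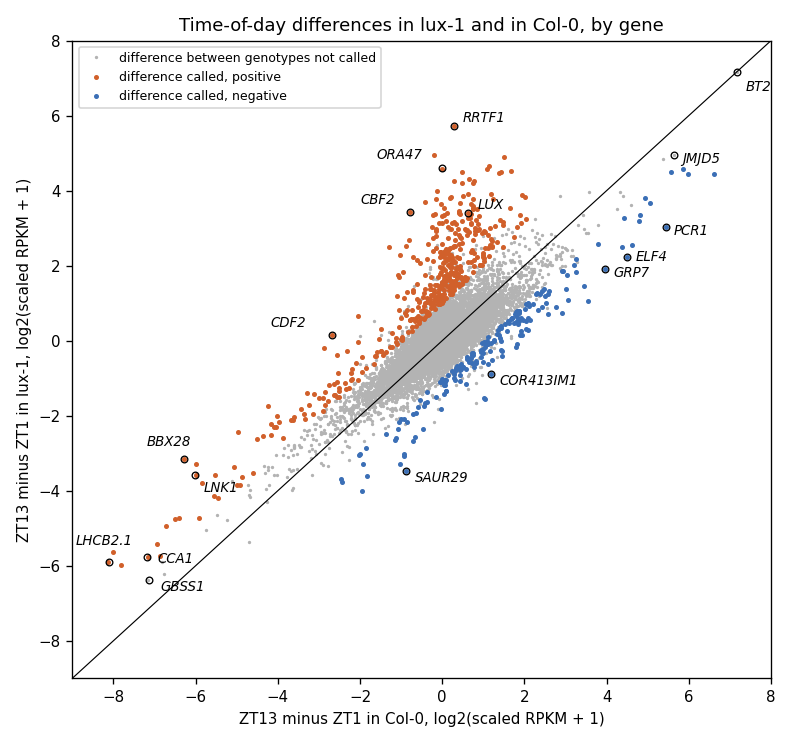
Time difference (ZT13 minus ZT1, log2 scale) of each of the 21666 genes tested, in Col-0 on the x axis and in *lux-1* on the y axis, with equality as a line. Genes whose difference between genotypes was called are orange (448, positive, above the line) or blue (190, negative, below it), and many of the orange genes, such as *RRTF1* and *ORA47*, stand near 0 in Col-0 and between 1 and 6 in *lux-1*.

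The light-harvesting genes, which encode the chlorophyll-binding antenna proteins of both photosystems, mostly fell in the evening in both genotypes, and several fell less far in *lux-1*. Of 21 tested, 18 passed as lower, 1 as higher and 2 did not, where 23.3% and 27.5% of all genes passed. Their median was -2.12 in *lux-1* and -3.29 in Col-0. The member that rose was *LHCB4.3*, by 1.3. The scaled RPKM of *LHCB2.1* was 3650, 5528 and 5125 at ZT1 and 78.7, 72.6 and 80.9 at ZT13, against 18.2 to 19.7 at ZT13 in Col-0. The fall of 5.91 ± 0.14 was smaller than that in Col-0 by 2.21 ± 0.20 (limma adjusted p = 1.6e-06). *LHCB2.2*, with 80.4 to 89.6 at ZT13, and *LHCB2.3*, with 16.8 to 23.3, also kept higher evening levels than in Col-0, and their falls were smaller by 2.37 and 1.84. *LHCB2.1* and *LHCB2.2* are near-identical genes, and how the counting split reads between them is not given in the sources used here. *LHCB3*, an antenna protein of photosystem II, stood at 872, 796 and 827 at ZT13 against 274 to 298 in Col-0, and *LHCA4*, of photosystem I, at 1630, 1631 and 1556 against 518 to 548. In all, 12 of the 21 had a positive difference between genotypes that passed and none a negative one, where 4.59% and 3.54% of all genes passed. For 12 every *lux-1* library lay above every Col-0 library at ZT13, against 9.21% of all genes. The first of the *lux-1* ZT1 libraries had the lowest level of each of these 5 genes.

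Chlorophyll and isoprenoid genes behaved alike in part. Of 19 tested, 13 passed as lower, 2 as higher and 4 did not, where 23.3% and 27.5% of all genes passed. Without *lux-1* ZT1 replicate 2 the count of higher genes was 4. *GUN4*, which activates magnesium chelatase, went from 358, 582 and 519 to 44.4, 38.2 and 50.2, a fall of 3.41 ± 0.14 that differed from Col-0 by 0.12 with an interval of -0.31 to 0.55. *ZEP*, of the xanthophyll cycle, fell by 3.02 ± 0.13. By contrast *CHLH*, the large subunit of the same chelatase, stayed at 220, 190 and 187 at ZT13 against 81.8 to 95.4 in Col-0, and *CAO*, which makes chlorophyll b, at 32.3, 29.2 and 29.8 against 9.30 to 10.3. Their falls were smaller by 1.56 ± 0.16 and 1.88 ± 0.18, and that of *HEMA1*, the enzyme at the head of the pathway, by 0.88 ± 0.17. All 3 differences passed.

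The *BBX* genes encode B-box zinc finger regulators of light responses, and several of them kept a higher evening level in *lux-1* than in Col-0. Of 16 tested, 12 passed as lower, 3 as higher and 1 did not, where 23.3% and 27.5% of all genes passed. Between genotypes, 9 differences were positive and passed, against 1 negative, where 4.59% and 3.54% of all genes passed. *BBX28* went from 92.9, 97.6 and 87.1 to 9.26, 10.5 and 8.69, while in Col-0 its evening level was 0.295 to 0.435. The fall of 3.16 ± 0.12 was smaller than in Col-0 by 3.12 ± 0.16 (limma adjusted p = 5.1e-09). *BBX24* remained at 81.6, 85.3 and 74.0 against 11.9 to 13.5, and *BBX18* at 4.31, 5.48 and 5.96 against 0.764 to 1.07, with differences of 2.56 ± 0.14 and 1.95 ± 0.20. *BBX16* fell by 5.90 ± 0.12, among the 8 largest falls, and it too fell less than in Col-0, by 0.92 ± 0.17. At ZT13 every *lux-1* library lay above every Col-0 library for 7 of the 16 and below for 4, against 9.21% and 9.14% of all genes. At ZT1 this was so for 1 and 8, against 15.2% and 17%.

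All 12 light signaling genes passed, 10 as lower and 2 as higher, where 23.3% and 27.5% of all genes passed. *HYH*, the partner of the bZIP factor HY5, fell by 2.76 ± 0.14 in *lux-1*, with a difference from Col-0 of 0.24 and an interval of -0.16 to 0.65. *ELIP1* and *ELIP2*, early light-induced proteins, fell by 3.30 ± 0.34 and 4.72 ± 0.27, less than in Col-0 by 2.68 ± 0.48 and 1.69 ± 0.38, and *ELIP1* remained at 36.5 to 47.6 at ZT13 against 2.74 to 6.52. *RUP2*, a repressor of UV-B signaling, fell by 2.63, and *CRY2*, a blue-light receptor, rose by 1.22. Of the 15 flavonoid genes, 9 passed as lower and 6 did not, where 23.3% of all genes passed as lower. *PAP1*, a MYB activator of the pathway, fell by 2.47 ± 0.19, and the biosynthetic genes *4CL3*, *F3H*, *PAL1* and *CHI* fell by 2.22, 2.01, 1.81 and 1.19. Their differences from Col-0, 0.66 to 0.86, had adjusted p values of 0.0521 to 0.0804, which rose to as much as 0.202 when single libraries were left out.

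**Figure D3:**
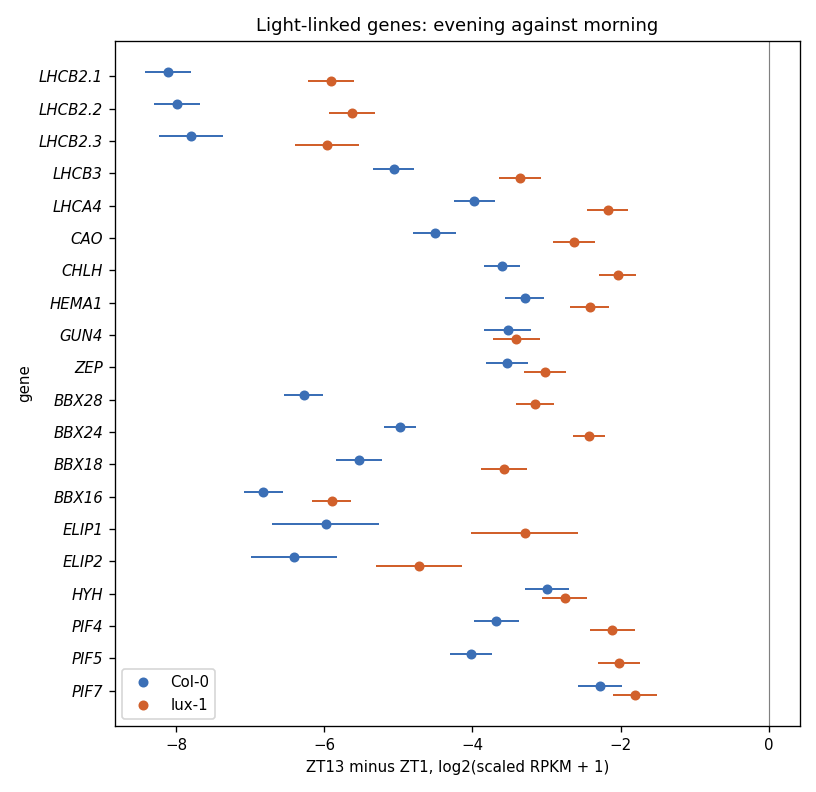
Time difference (ZT13 minus ZT1, log2 scale) of 20 light-linked genes in Col-0 (blue) and *lux-1* (orange), with 95% intervals as lines. *BBX28* and *LHCB2.1* fall by 3.16 and 5.91 in *lux-1*, less far than in Col-0, while *GUN4* and *HYH* have overlapping intervals in both genotypes.

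Of 16 *PIF* and elongation growth genes tested, 9 passed as lower, 2 as higher and 5 did not, where 23.3% and 27.5% of all genes passed. Between genotypes 5 differences passed, all of them positive, where 4.59% of all genes passed as positive. *PIF4* and *PIF5*, growth-promoting bHLH factors, were at 12.1, 13.9 and 10.1 and at 22.5, 28.1 and 23.3 at ZT13 in *lux-1*, against 3.49 to 3.85 and 6.86 to 8.71 in Col-0. Their falls of 2.11 and 2.02 were smaller by 1.57 ± 0.20 and 2.00 ± 0.18 (limma adjusted p = 5.5e-05 and 1.7e-06). *PIF7* fell by 1.81, *PIF3* rose by 0.90, and *ATHB2*, a shade-induced factor, rose by 0.84 where Col-0 had -0.02. Of 18 flowering genes, 7 passed as higher, 7 as lower and 4 did not, against 27.5% and 23.3% of all genes. Between genotypes, 9 differences were positive and passed, against 2 negative, where 4.59% and 3.54% of all genes passed. *CDF2*, a DOF factor that represses *CO* and *FT*, had 8.72, 7.46 and 7.22 at ZT1 and 7.07, 12.5 and 7.70 at ZT13, so that its times overlapped and the difference of 0.16 did not pass. In Col-0 it fell from 12.0, 12.9 and 12.5 to 1.27, 1.11 and 0.958, and the difference between genotypes was 2.84 ± 0.24 (limma adjusted p = 9.0e-07). *CDF1* and *CDF3* fell by 2.1 and 3.84, and the CONSTANS-like genes *COL2* and *COL5* by 3.85 and 2.3, each less than in Col-0 by 1.07 to 1.80. *COL9* rose from 2.92, 3.33 and 3.67 to 96.2, 110 and 82.6, a rise of 4.49 ± 0.16 against 5.56 in Col-0.

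Carbon metabolism was represented by genes of starch breakdown, starch synthesis and the Calvin cycle. Of 16 starch breakdown genes tested, 11 passed as higher, 3 as lower and 2 did not, where 27.5% and 23.3% of all genes passed. Their median was 0.53 in *lux-1* and 0.83 in Col-0. *ISA3*, a debranching enzyme, rose from 10.1, 10.3 and 10.3 to 42.5, 40.4 and 39.0, and *PWD*, which phosphorylates glucan, from 22.0, 21.7 and 22.4 to 77.0, 79.4 and 66.7. The rises of 1.89 and 1.71 were smaller than in Col-0 by 0.99 ± 0.14 and 0.72 ± 0.12. *PHS2*, a cytosolic phosphorylase, was already at 61.9, 75.8 and 94.5 at ZT1 against 23.8 to 27.9 in Col-0, and its rise of 0.55 ± 0.12 was smaller by 1.42 ± 0.17 (limma adjusted p = 3.4e-05). *DPE1* rose by 1.48. *BAM9*, a beta-amylase-like protein, fell by 1.71 against 2.85. In all, 9 of the 16 genes had every *lux-1* library above every Col-0 library at ZT1 and 2 below, against 15.2% and 17% of all genes. Of 14 starch synthesis genes, 8 passed as lower, 4 as higher and 2 did not, against 23.3% and 27.5% of all genes. Beside *GBSS1*, *SS2* and *ISA2* fell by 1.24 and 1.08 and the branching enzyme *SBE2.1* rose by 1.13.

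Of the 19 genes of darkness and sugar starvation, 14 passed as higher, 3 as lower and 2 did not. Of all genes, 27.5% passed as higher and 23.3% as lower. Beside *BT2*, *DRM1*, a dormancy-associated gene, rose from 10.3, 8.95 and 10.4 to 159, 130 and 123, by 3.66 ± 0.21 against 5.05 in Col-0. *TPS9* and *TPS10*, of the class II trehalose-phosphate synthases, rose by 2.16 and 1.93, and *BZIP1*, a sugar-repressed bZIP factor, by 1.71 ± 0.22 against 0.45. *DIN2*, a dark-inducible beta-glucosidase, was at 5.64, 144 and 44.9 at ZT13, so that its libraries overlapped with the 2.76 to 7.28 of ZT1. Its difference of 2.53 no longer passed without *lux-1* ZT13 replicate 2, when it was 1.51. Of 13 Calvin cycle genes tested, 2 passed as higher, 2 as lower and 9 did not, against 27.5% and 23.3% of all genes. Their median was -0.04. *CP12-2* rose by 0.87 and *TKL1* by 0.56, and *RCA*, Rubisco activase, fell by 0.87, from 6411, 9351 and 8367 to 4810, 4447 and 3851. *PRK* had -0.30 at an adjusted p of 0.0978, a direction that turned to 0.06 under quantile normalization. That scaling gave 8 higher and 0 lower of the 13, and RPKM as deposited gave 4 higher. Of the 11 nitrogen and sulfur assimilation genes, 6 passed as higher, 4 as lower and 1 did not, against 27.5% and 23.3% of all genes. Without *lux-1* ZT13 replicate 1, 3 passed as higher. *NIA1*, a nitrate reductase, rose from 62.3, 75.9 and 55.3 to 199, 194 and 159, by 1.5 ± 0.12 against 0.35 in Col-0, and the difference of 1.15 ± 0.17 passed. *UPM1* rose by 1.72 and *NIA2* by 0.88, and *APR2* and *NRT1.1* fell by 2.83 and 1.32. Of the 3 catalase genes, *CAT2* fell from 1615, 2098 and 1775 to 340, 403 and 272, *CAT1* rose by 1.08, and *CAT3* had 0.06 against 0.75 in Col-0, and 0.21, which passed, for RPKM as deposited.

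The rapidly induced stress genes, whose transcripts rise within minutes of wounding, touch or other stress, had the largest median difference between genotypes of all lists. The list was chosen with earlier results of these data known, so its rank and counts are no independent support. All 14 tested passed as higher at ZT13 in *lux-1*, where 27.5% of all genes did. Their median was 3.62, against a median of 0.54 in Col-0. In Col-0 8 passed as higher and 1 as lower, where 6180 and 5608 of the 21666 genes tested passed. The difference between genotypes was positive and passed for 13 of them, against 4.59% of all genes. *ORA47* (AT1G74930), an ERF activator of jasmonate biosynthesis genes, was at 6.88, 9.07 and 12.2 at ZT1 and at 259, 237 and 237 at ZT13 in *lux-1*. In Col-0 it was high at both times, at 181, 249 and 252 and at 164, 276 and 252. The evening levels overlapped, and the *lux-1* morning libraries alone were low. *RRTF1* (AT4G34410), a redox-responsive ERF, showed the same pattern, with 4.44, 0.840 and 1.91 at ZT1 in *lux-1*, 153, 141 and 196 at ZT13, and 57.1 to 143 over the 6 Col-0 libraries. Its rise was 5.72 ± 0.39, larger than in Col-0 by 5.43 ± 0.55 (limma adjusted p = 5.4e-06), the largest positive difference of all genes called. The zinc finger genes *ZAT10* and *ZAT12* rose by 3.66 ± 0.18 and 3.26 ± 0.16, *ERF5* by 3.59 ± 0.19, and *TCH2*, a calmodulin-like gene, by 1.75 ± 0.13, each larger than in Col-0 by 2.16 to 3.23. Of the 14 genes, 12 had every *lux-1* library below every Col-0 library at ZT1, against 17% of all genes. At ZT13, 6 had every *lux-1* library above, against 9.21% of all genes, and none below. Outside the list, *CML37*, *ERF104* and AT4G29780 were among the 8 largest rises of *lux-1*, by 4.91, 4.66 and 4.94, against 1.51, 1.13 and -0.21 in Col-0. *SZF1*, a tandem zinc finger gene, and *ACS6*, which makes the ethylene precursor, were among the 6 largest positive differences, with 4.13 ± 0.38 and 4.12 ± 0.34.

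Jasmonate genes followed in part. Of 25 tested, 12 passed as higher, 3 as lower and 10 did not, where 27.5% and 23.3% of all genes passed. Between genotypes, 7 differences were positive and passed, against 2 negative, where 4.59% and 3.54% of all genes passed. The repressor genes *JAZ1*, *JAZ7* and *JAZ8* rose by 2.23, 2.06 and 2.40, where Col-0 had 0.35, -0.54 and 0.07. *JAZ1* went from 141, 92.0 and 83.2 to 460, 558 and 449, and *MYC2*, the central bHLH factor, from 150, 126 and 125 to 287, 314 and 338. The differences were 1.88 ± 0.28 for *JAZ1* and 1.24 ± 0.22 for *MYC2* (limma adjusted p = 0.00041 and 0.0019). *AOC2*, an allene oxide cyclase, rose by 1.85 against 2.93 in Col-0. Among 13 cold response genes, 4 passed as higher, 5 as lower and 4 did not, where 27.5% and 23.3% of all genes passed. *CBF2*, a DREB factor of cold acclimation, rose from 1.79, 2.99 and 1.31 to 25.5, 27.6 and 42.8, while Col-0 stood at 25.0 to 41.0 at ZT1 and 12.4 to 24.7 at ZT13. The difference of 4.23 ± 0.47 passed (limma adjusted p = 1.6e-05), and so did those of *CBF3*, 2.3, and *CBF1*, 1.43. *CBF1* did not pass without Col-0 ZT13 replicate 1, when its difference was 1.1. In *lux-1* it was at 0 to 0.242 at ZT1 and 4.03 to 5.89 at ZT13. These levels lay below Col-0 at both times, at 8.62 to 11.4 and 13.8 to 29.0. *CBF3* was weakly expressed, at 0.304 to 6.02 over both genotypes and times. *COR413IM1*, a cold-regulated protein of the chloroplast envelope, fell from 61.2, 85.2 and 76.0 to 39.5, 43.0 and 36.0 where Col-0 rose, and the difference was -2.06 ± 0.22. *GOLS3* fell by 2.03 and *ICE1* by 0.50. In all, 11 of the 13 cold response genes had every *lux-1* library below every Col-0 library at ZT1 and 6 at ZT13, against 17% and 9.14% of all genes.

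**Figure D4:**
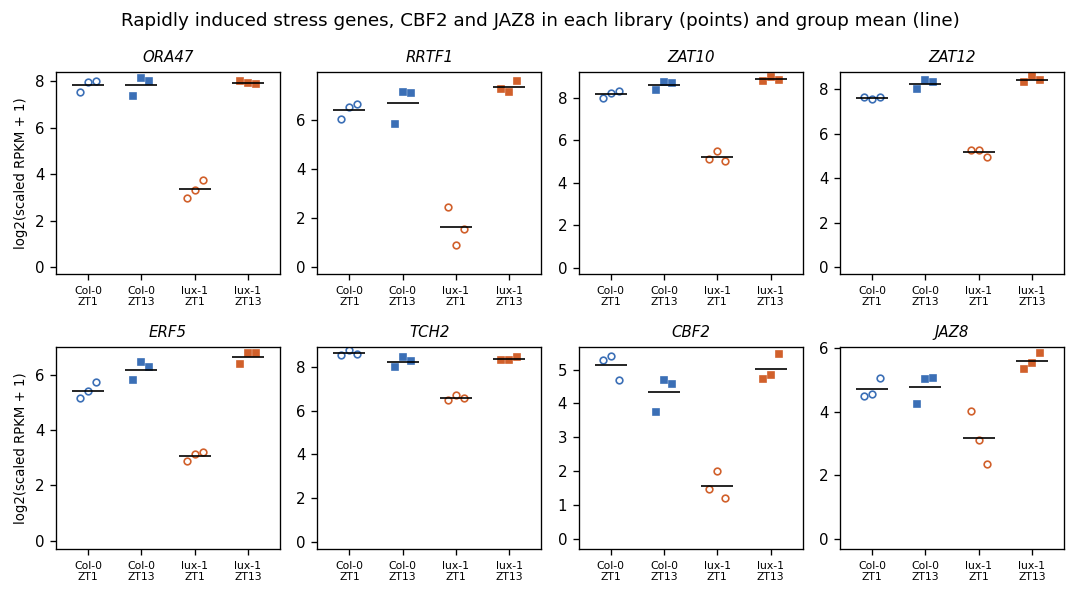
Level of 6 rapidly induced stress genes, *CBF2* and *JAZ8* in each library, as log2(scaled RPKM + 1), at ZT1 (open circles) and ZT13 (filled squares) in Col-0 (blue) and *lux-1* (orange), with the group mean as a line. For each gene the 3 *lux-1* morning libraries lie below all others.

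Of 21 salicylic acid (SA) genes tested, 12 passed as higher, 1 as lower and 8 did not in *lux-1*. Of all genes, 27.5% passed as higher and 23.3% as lower there. In Col-0 12 passed as higher, 2 as lower and 7 did not, where 6180 and 5608 of the 21666 genes tested passed. The medians of the SA genes were 0.58 in *lux-1* and 0.59 in Col-0. The regulator genes *CBP60G* and *SARD1*, which act on SA synthesis, rose by 2.46 ± 0.26 and 2.27 ± 0.23, and *SARD1* differed from Col-0 by 0.39 with an interval of -0.29 to 1.07. *NPR3*, an SA receptor, rose from 13.7, 12.0 and 11.4 to 30.7, 41.5 and 44.5, where Col-0 stayed at 22.7 to 28.6, and the difference of 1.55 ± 0.31 passed. *PR2*, a beta-glucanase, was at 93.8, 92.1 and 80.4 at ZT1 and at 179, 408 and 206 at ZT13. Its morning level lay above the 19.4 to 42.2 of Col-0, and its rise of 1.47 ± 0.29 was smaller by 1.99 ± 0.41 (limma adjusted p = 0.00708). *PR5* had 0.59 against 1.89, and no longer passed without *lux-1* ZT1 replicate 3, at 0.55, or without ZT13 replicate 2, at 0.36. *PAD4* rose by 0.82, and the receptor gene *NPR4* was the member that fell, by 0.36. Among the largest negative differences were *PCR1*, a small membrane protein of metal resistance, which rose by 3.02 against 5.44, and *LURP1*, a defense gene, which rose by 1.06 against 3.55. Without *lux-1* ZT1 replicate 3, in which it was lowest, *LURP1* rose by 0.46 and did not pass. *SAUR29*, of the auxin-induced SAUR family, fell by 3.47 against 0.87, and the neighbouring genes AT3G28290 and AT3G28300 by 1.52 and 1.55. In Col-0 AT3G28300 rose by 1.05, and AT3G28290 had 1.02 with a limma adjusted p of 0.102. Both had nearly equal values in every library, and reads shared between them may not be assigned to either with certainty. Their differences from Col-0 did not pass without Col-0 ZT1 replicate 2, when they were -2.23 and -2.26.

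**Figure D5:**
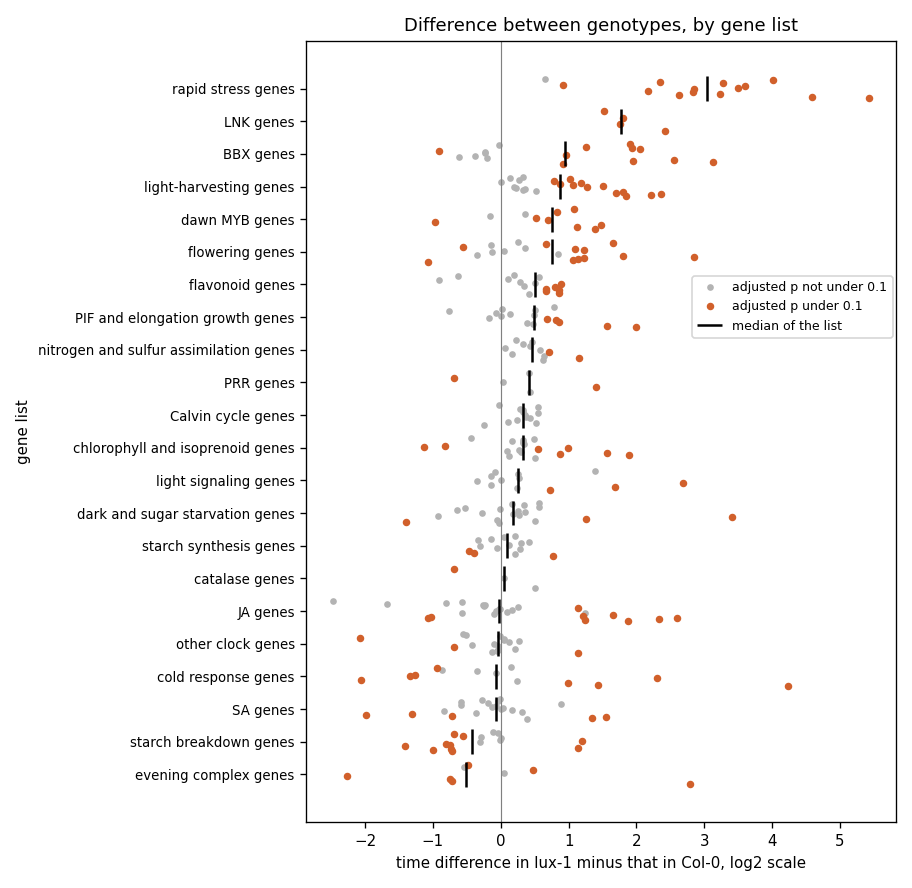
Time difference in *lux-1* minus that in Col-0 (log2 scale, x axis) of each tested member of 22 gene lists (y axis), with members that passed in orange and the median of each list as a line. Medians run from -0.52 in the evening complex genes to 3.04 in the rapid stress genes, against 0.01 over all genes tested. The lists were chosen with earlier results of these data known.

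The libraries are labelled as whole plants, and genes of leaves dominated them, with *RCA* at 3851 to 9351 scaled RPKM in *lux-1*. Markers of other organs differed between the groups. The 10 floral organ genes summed to 29.5 to 56.5 at ZT1 and 42.5 to 89.0 at ZT13 in *lux-1*, and to 9.26 to 16.1 in Col-0. Of these, 4 passed as higher at ZT13, *FUL*, *AP3*, *PI* and *SEP3*, where 27.5% of all genes passed as higher. Their rises were 0.45 to 1.04, and their libraries overlapped. Without *lux-1* ZT1 replicate 2 or ZT1 replicate 3 the count was 0, without ZT13 replicate 1 it was 1, and without ZT13 replicate 2 it was 2. The 6 tapetum and pollen coat genes summed to 14.6, 0.930 and 0 in the ZT1 libraries of *lux-1*, where 0, 4 and 6 of them were at 0, and to 67.6, 46.9 and 23.4 at ZT13. In Col-0 the sum was 0 to 0.364. Of these, 5 passed as higher in *lux-1*, against 27.5% of all genes. Among them was *GRP19*, an oleosin-like pollen coat protein, with 3.64, 0 and 0 at ZT1 and 23.7, 16.3 and 9.85 at ZT13. No Col-0 group reached the filter of 0.3 RPKM for these genes, so they were tested only through groups where they were higher. The list was also chosen with earlier results known, and the count is no independent support. DESeq2 on the recovered reads called 1 of the 6, with adjusted p values of 0.203 to 0.316 for *EXL4*, *GRP17* and *GRP19*. Root markers summed to 131 to 190 at ZT1 and 170 to 212 at ZT13, and none of the 3 tested passed. In whole plants, more cells of a type and more RNA per cell cannot be told apart, and the part of flower tissue in the other results was not tested.

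The other genotype with *lux-1*, *acd6-1lux-1*, gave a time comparison that shares no library with that of *lux-1*. There, 1048 genes were called higher and 1216 lower at ZT13, 10.4% of those tested, and 2222 in all without the library that stood apart. The time differences correlated with those of *lux-1* at 0.76 across genes. Of the *lux-1* calls, 57.9% were called there in the same direction, which is 58.0% of the *acd6-1lux-1* calls, and 885 genes were called in the same direction in *lux-1*, Col-0 and *acd6-1lux-1*. The *LUX* rise was 3.05, the fall of *CCA1* 6.21 and that of *LNK1* 4.11, near the *lux-1* values of 3.41, 5.78 and 3.58. All 14 rapid stress genes passed as higher, where 5189 of the 21666 genes tested did, with a median of 1.93 against 3.62 in *lux-1*. *BT2* rose by 4.57 and *RVE2* by 0.87, less than the 7.15 and 3.63 of *lux-1*. Whether these differences between *acd6-1lux-1* and *lux-1* exceed their error was not tested.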

How the data were processed

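Total RNA of 25-day-old plants was sequenced as 51-cycle single reads from TruSeq libraries. The authors deposited RPKM values of 25218 transcripts in 22 libraries of 8 groups, with each library's total reads as counts. CASAVA and TAIR10 are named in the submitters' processing notes, and no aligner or counter is named there. Not used was 1 further column of values that names no sample. Reads were recovered from RPKM, mapped reads and the smallest length that made every value of a transcript whole, to within 0.001 read. Such a length was found for all 25218 transcripts, so that 100% of values were whole by that choice. Of these lengths, 97.4% were multiples of 3. For transcripts seen in few libraries the smallest length can be too short, and the recovered reads then too few. Total reads were 14458079 to 20134373 and mapped reads 10306552 to 16224975 per library.

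RPKM was divided by median-of-ratios size factors from genes above 0 in every library, 1 was added, and log2 values of all 22 libraries were fitted in limma 3.58.1 (R 4.3.3) with a trended prior, over 21666 genes with a group mean above 0.3 RPKM. Intervals are at 95%. The label acd6-1-0 was read as *acd6-1*. Symbols came from an annotation table of TAIR10.1, which matched 24867 identifiers. The 25 gene lists held 332 entries. The genes named were *LUX*, all clock list members, the 8 largest rises and falls without overlap, from each other list the 4 members of lowest adjusted p at most, the 6 largest positive and negative differences between genotypes, and from each list at most 3 members of lowest adjusted p for that difference. The members, lists and rule were chosen with earlier results of these data known.

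Alternatives were RPKM as deposited, quantile normalization, pseudocounts of 0.1 and 0.5, no filter or a filter at 1, and only the libraries compared. Others were no trend, an adjusted p under 0.05, no fold criterion, a replicate block, and count models fitted to the recovered reads (edgeR 4.0.16, DESeq2 1.42.0). Each library of *lux-1*, Col-0 and *acd6-1lux-1* was also left out in turn, while those of *acd6-1* were not. Promoter motifs were not analysed here. Figures used Python 3.11.15 and matplotlib 3.10.9.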

Additional observations from a re-analysis of the deposited data

Results flagged for a closer look

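For 72 of the genes named, the test of the difference between genotypes gave an adjusted p under 0.1 together with a change beyond 1 on the log2 scale. The values are the ZT13 minus ZT1 difference in *lux-1* minus that in Col-0, and the cause was not tested for any of them.

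Among clock genes, the difference was 2.79 for *LUX*, -2.27 for *ELF4*, 1.39 for *CCA1*, 1.13 for *LHY*, 1.48 for *RVE1*, 1.08 for *RVE8* and 1.41 for *PRR7*. It was 2.42 for *LNK1*, 1.75 for *LNK2*, 1.80 for *LNK3*, 1.52 for *LNK4*, 1.14 for *GI* and -2.07 for *GRP7*. In flowering and growth genes it was 1.23 for *CDF1*, 2.84 for *CDF2*, 1.07 for *CDF3*, 1.14 for *COL2*, 1.80 for *COL5*, -1.07 for *COL9*, 1.57 for *PIF4* and 2.00 for *PIF5*.

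Light-linked genes had differences of 2.21 for *LHCB2.1*, 2.37 for *LHCB2.2*, 1.84 for *LHCB2.3*, 1.70 for *LHCB3*, 1.80 for *LHCA4*, 1.88 for *CAO* and 1.56 for *CHLH*. The values were 3.12 for *BBX28*, 1.95 for *BBX18*, 2.56 for *BBX24*, 2.68 for *ELIP1* and 1.69 for *ELIP2*. In metabolism they were 1.14 for *BAM9*, -1.42 for *PHS2*, -1.39 for *DRM1*, 1.26 for *BZIP1*, 3.41 for *DIN2* and 1.15 for *NIA1*.

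Stress genes had the largest values, with 5.43 for *RRTF1*, 5.15 for AT4G29780, 4.59 for *ORA47*, 4.13 for *SZF1*, 4.12 for *ACS6*, 3.53 for *ERF104*, 3.40 for *CML37*, 3.23 for *ZAT10*, 2.83 for *ERF5*, 2.63 for *ZAT12* and 2.16 for *TCH2*. Cold response genes had 4.23 for *CBF2*, 2.3 for *CBF3*, 1.43 for *CBF1* and -2.06 for *COR413IM1*. JA genes had 2.60 for *JAZ7*, 2.34 for *JAZ8*, 1.88 for *JAZ1*, 1.24 for *MYC2* and -1.08 for *AOC2*, and SA genes had 1.55 for *NPR3*, 1.34 for *CBP60G*, -1.99 for *PR2* and -1.31 for *PR5*.

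The most negative values outside the lists were -2.60 for *SAUR29*, -2.59 for AT3G28300, -2.54 for AT3G28290, -2.49 for *LURP1* and -2.42 for *PCR1*. Tapetum and pollen coat genes had 3.32 for *GRP19*, 2.41 for *GRP17*, 2.33 for *EXL4* and 1.51 for *EXL6*. In DESeq2 on the recovered reads the differences of *GRP19*, *GRP17* and *EXL4* did not pass. Those of *DIN2* and *AOC2* were lost in 10 and 11 of the 13 fits that each left out 1 library, with adjusted p values up to 0.202 and 0.252. That of *CBP60G* did not pass without Col-0 ZT1 replicate 2, at 1.25, without Col-0 ZT13 replicate 1, at 1.28, or without *lux-1* ZT1 replicate 3, at 1.14.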

How the results depend on the processing

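Without the fold criterion, 10995 genes passed in *lux-1*, 5949 higher and 5046 lower, 11788 in Col-0, 10137 in *acd6-1lux-1*, and 1762 for the difference between genotypes, 995 positive and 767 negative. Leaving out single libraries gave 2084 to 2450 calls in *lux-1* (1035 to 1316 higher, 1043 to 1142 lower), 2339 to 2606 in Col-0, 2222 to 2445 in *acd6-1lux-1*, and 551 to 715 for the difference (407 to 536 positive, 128 to 214 negative). All other alternatives stayed within 1.5 times these counts, among them edgeR with 3243 and DESeq2 with 3029 calls in *lux-1*. As deposited, Col-0 had 2845 calls. A fit with a replicate block gave 1190 higher and 1076 lower in *lux-1* and 443 positive and 187 negative differences. Whether the replicate numbers pair the samples was not settled. The deviations of same-numbered libraries from their group means correlated at -0.17, 0.02 and 0.13 in *lux-1*. In Col-0 they correlated at 0.14, 0.14 and -0.04. Deviations within a group balance each other, so these correlations cannot show that pairing is absent. Of 148 named genes, 127 kept their call in *lux-1* under every alternative, as did 74 of the 100 whose difference between genotypes passed. The sign of a passing value turned for *PRK* alone, at 0.063 under quantile normalization. Leaving out *acd6-1lux-1* ZT1 replicate 3, which was chosen after seeing the data, gave 2268 calls in *lux-1* and 659 for the difference. The promoter motif search was not run. At 3 libraries per group, differences of weakly expressed genes are those least well measured, and the p values cover the spread between these plants only.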

Other observations

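The florigen gene *FT* and its relative *TSF* were looked at after their values were seen, as targets of the flowering regulators above. In *lux-1* the mean level of *FT* was 0.773 scaled RPKM at ZT1 and 15.3 at ZT13, a rise of 3.15 ± 0.28 (SE) against 1.92 in Col-0. For *TSF* the means were 0.161 and 2.47, a rise of 1.52 ± 0.25 against 0.42. The limma adjusted p of the difference between genotypes was 0.0893 for *FT* and 0.0862 for *TSF*, and how it holds without single libraries was not tested.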
